A study of Mus musculus with 16 samples.

Results

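Hprt, the purine salvage enzyme gene, was followed with 4 partner genes of purine metabolism, Aprt, Gart, Impdh2 and Adsl, across 6 groups of mouse samples. The group was built around Hprt because its signal was near background in some of the cell lines, so the Hprt levels below are a description and carry no test. Members were the probe sets whose only gene symbol in the annotation of the array is one of these 5 names. Of the 5 genes, 4 had such a probe set, with 6 probe sets in all, among 8252 genes and 10855 single-gene probe sets on the array. Impdh2 had none and was not analysed here. The first group is the Cdk4 +/- embryonic stem (ES) cell line, with 1 mutated copy of the cell cycle kinase gene Cdk4, and its control is the +/+ ES line E14. Both are feeder-independent lines, and their RNA was isolated with RNeasy. The second pair is the Abca1 +/- ES line, with 1 mutated copy of the cholesterol transporter gene Abca1, and its +/+ parent ESVJ. Both grew on irradiated mouse embryonic fibroblast feeders, were then depleted of feeders and kept about 2 days on gelatin, and their RNA was isolated with Trizol/RNeasy. The last pair is liver from Abca1 +/- mice and liver from +/+ mice, all with 129/SvJ and C57BL6/J mixed in their background. Each ES group had 3 arrays and each liver group 2. The labels give each line once, so a line is a single clone or culture stock as far as they say, and they give neither the sex and age of the mice nor separate cultures. Every p therefore measures only the spread between these samples, which may be technical.

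Cells make purine nucleotides by a long route that builds the ring on activated ribose phosphate, and they also recycle free bases and nucleosides by short salvage steps. Hprt joins ribose phosphate to hypoxanthine and guanine, and Aprt does the same for adenine. Gart carries several steps of the long route, Adsl acts in it and again on the way to AMP, and Impdh2 starts the branch to GMP. Hprt lies on the X chromosome and has long served as a selectable marker in ES cells, because cells without it survive 6-thioguanine and die in medium that forces salvage. E14TG2a, an ES subline in wide use, lacks Hprt function. The labels name the line here only as E14, and its subline is not given in the sources used here.

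Values are MAS5 signals, the summary intensity of each probe set, rescaled so that the 2% trimmed mean of every array is 500. Array medians then lay between 126.1 and 169.7. Arrays of 1 group correlated with r from 0.937 to 0.990 over all probe sets. Differences were taken between log2(signal + 32) values, so low signals show less than their true change. A probe set passed when its adjusted p was under 0.05. The cells matched their labels by 12 measured ES markers, which summed to 41850 to 47990 in Cdk4 +/- and 35040 to 41000 in E14 cells, against 57200 to 66230 in Abca1 +/- and 58740 to 66150 in ESVJ cells. They summed to at most 908.6 in the livers. Of the 12, 8 were lower and 1 higher in Cdk4 +/- against Abca1 +/- cells, and 11 were lower and 1 higher in E14 against ESVJ cells; the part of this in the differences below was not tested. The 17 measured fibroblast markers summed to 3593 to 4254 in Cdk4 +/- and 3457 to 3486 in E14 cells, and to 2834 to 3256 in Abca1 +/- and 3086 to 3355 in ESVJ cells, so the feeder-grown lines did not hold more of them. The 14 measured hepatocyte markers summed to 289500 or more in livers and to at most 1093 in ES cells. Replicate 1 of the Abca1 +/- livers stood apart in RNA quality, with a 3'/5' signal ratio of 4.10 for Gapdh, where the other 15 arrays lay between 0.801 and 1.19.

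Hprt was present in 4 groups and near background in the feeder-independent ES lines. The only Hprt probe set gave 22.8, 35.5 and 34.7 in Cdk4 +/- cells and 54.5, 76.6 and 54.6 in E14 cells. It gave 2521, 3224 and 3098 in Abca1 +/- ES cells and 3044, 3116 and 2789 in ESVJ cells. No array of the feeder-independent lines came near any array of the feeder-grown lines. The 4 yeast control probe sets of the array, which have no target in mouse RNA and were chosen as a yardstick after the values were seen, ranged up to 63.7 in Cdk4 +/- and up to 92.6 in E14 cells, so all 6 Hprt values of these lines lie inside that range. The mean signal was 31.0 ± 7.14 in Cdk4 +/- cells against 2948 ± 374 in Abca1 +/- cells, a ratio of 95.03, and 61.9 ± 12.7 in E14 cells against 2983 ± 172 in ESVJ cells, a ratio of 48.2 (SD, n = 3 each). Since the low values are near background, these ratios depend on what the array reads without target.

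On the log2(signal + 32) scale, Hprt differed by -5.56 between Cdk4 +/- and Abca1 +/- cells and by -5.01 between E14 and ESVJ cells. With 1 in place of 32 the differences were -6.54 and -5.59, and with 100 they were -4.53 and -4.25, so their size is not fixed by these data. Line, feeder culture and RNA method change together between these pairs. Between Cdk4 +/- and Abca1 +/- cells the mutated gene differs too. The parts of these in the Hprt difference cannot be told apart.

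In liver, Hprt gave 957 and 1532 in Abca1 +/- animals and 1917 and 2985 in +/+ animals. Both Abca1 +/- values lie below both +/+ values (1245 ± 407 against 2451 ± 755, SD, n = 2 each, log2 difference -0.96). The lower of them, 957, comes from the array with the high Gapdh 3'/5' ratio, and its part in the difference was not tested. Ordered by mean, ESVJ, Abca1 +/- ES cells and +/+ livers come first and overlap one another. Abca1 +/- livers follow, then E14 and Cdk4 +/- cells. The Cdk4 +/- and E14 values do not overlap, but both sets sit within the range of the yeast controls.

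**Figure D1:**
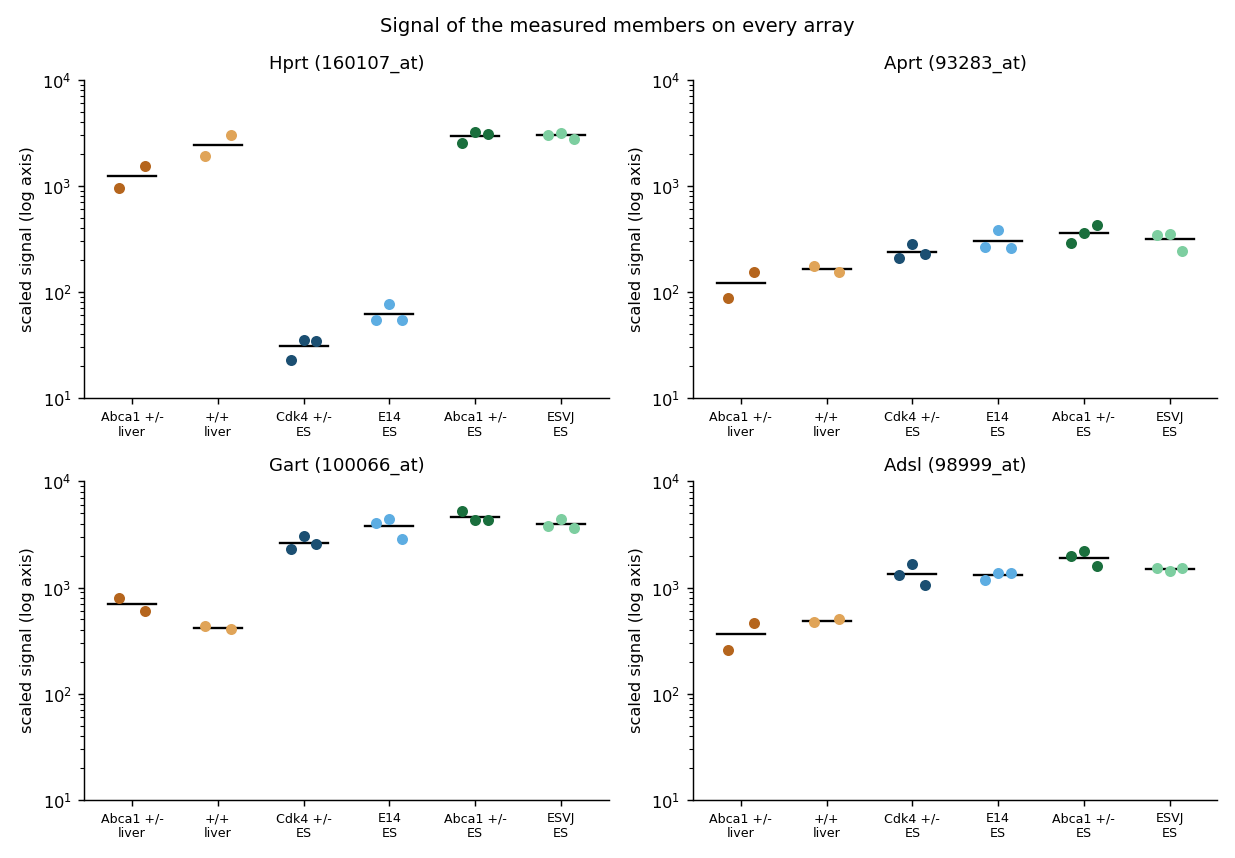
Scaled signal (log axis) of Hprt, Aprt, Gart and Adsl on each of the 16 arrays; each point is 1 array and each bar the mean of a group. Hprt sits at 76.6 or lower in Cdk4 +/- and E14 cells and at 957 or higher elsewhere, while the other 3 genes keep ES levels of the same order in all 4 lines and are lower in both liver groups.

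The nearest measured genes on the chromosome of Hprt, most of them far from it, did not share its pattern. The order of genes is that of RefSeq on GRCm38.p6. The nearest gene with a tested probe set after Hprt is Plac1, a placental gene, with log2 differences of 0.14 in Cdk4 +/- against Abca1 +/- cells (adjusted p = 0.672) and -0.02 in E14 against ESVJ cells (adjusted p = 0.952). On the other side, Gpc3, a cell surface heparan sulfate proteoglycan gene, was higher in both (1.05, adjusted p = 0.000664, and 0.65, adjusted p = 0.0164). Its relative Gpc4, further along the same side, averaged 1546 ± 377 in Cdk4 +/- cells against 326 ± 18.4 in Abca1 +/- cells and 1158 ± 257 in E14 cells against 313 ± 38.4 in ESVJ cells. That is 2.11 (adjusted p = 4.84e-07) and 1.77 (adjusted p = 2.96e-06) on the log2 scale. Further out, Fhl1, a LIM domain protein gene, was higher by 2.14 and 1.95 (adjusted p = 1.17e-07 and 3e-07), whereas Aifm1, a mitochondrial flavoprotein gene, and Htatsf1, a splicing and transcription factor gene, did not pass. Of the 6 measured neighbours, 3 were thus higher and 0 lower where Hprt was near background. Among all 7349 probe sets, 1427 were higher and 1550 lower in Cdk4 +/- against Abca1 +/- cells. In E14 against ESVJ cells, 1457 were higher and 1673 lower. In either direction 40.5% and 42.6% of all probe sets passed, so the neighbours passed about as often. That those passing were all higher was not tested against all probe sets.

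The promoter windows of Hprt and of Gart, the tested member with the largest difference between lines, are shown so that the 2 can be set side by side. Both windows are the 250 bases before the annotated start, from RefSeq on GRCm38.p6, read 5′ to 3′ on the strand of the gene. The Hprt window is chrX:52987828-52988077 on the + strand and the Gart window is chr16:91646973-91647222 on the - strand. Capitals mark GC boxes, the letters GGGCGG searched on both strands.
Hprt: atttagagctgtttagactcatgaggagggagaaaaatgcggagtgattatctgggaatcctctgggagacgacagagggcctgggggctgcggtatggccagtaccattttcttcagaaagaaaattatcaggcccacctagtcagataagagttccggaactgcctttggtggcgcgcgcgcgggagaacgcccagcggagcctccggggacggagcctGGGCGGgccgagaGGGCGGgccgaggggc
Gart: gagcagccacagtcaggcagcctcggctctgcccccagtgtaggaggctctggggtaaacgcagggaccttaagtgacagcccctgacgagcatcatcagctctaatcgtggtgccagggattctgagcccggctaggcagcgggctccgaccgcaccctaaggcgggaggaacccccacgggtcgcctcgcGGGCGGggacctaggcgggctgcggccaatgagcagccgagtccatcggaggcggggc
The Hprt window holds 2 GC boxes and has a G and C content of 59.6%, and the Gart window holds 1 and has 68.0%. The windows of Aprt, Adsl and Impdh2 hold 3, 2 and 1. A GC box was found in 32.7% of 32851 promoter windows of this length, so it is common. None of the 5 windows holds TATAAA, the core of a box near many start sites that 12.4% of windows hold, and the Impdh2 window alone holds CACGTG, an E box found in 6.02%. These matches are letters in a window and say nothing of binding.

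The genes with the pattern most like that of Hprt were found by comparing group means over the 6 groups, each probe set centred on its own mean, by root mean square difference on the log2 scale. Among 7068 probe sets the closest was Aass, an enzyme gene of lysine breakdown, at 1.13, where the median probe set was at 2.51. Aass averaged 220 in Cdk4 +/- and 247 in E14 cells, against 2400 in Abca1 +/- and 2007 in ESVJ cells, and 6695 and 6138 in Abca1 +/- and +/+ livers. Next came Bnip3, a mitophagy receptor gene (1.37), Hopx, a homeodomain-only protein gene (1.503), Gstp1, a glutathione transferase gene (1.56), and Angptl4, a lipoprotein lipase inhibitor gene (1.60). All 5 had lower means in both feeder-independent lines than in both feeder-grown lines, though Gstp1 still averaged 1889 in Cdk4 +/- and 1696 in E14 cells. Unlike Hprt, each was higher in both liver groups than in any ES group. A difference above 1 means that none follows Hprt closely, and 6 points that share culture and tissue make this a description.

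Aprt, the adenine counterpart of Hprt, was measured in all 4 ES lines at levels that lie close together. Its brightest probe set gave 207, 280 and 228 in Cdk4 +/- cells and 264, 383 and 261 in E14 cells. It gave 291, 357 and 428 in Abca1 +/- cells and 344, 352 and 245 in ESVJ cells. E14 and ESVJ overlap, while all 3 Cdk4 +/- values are below all 3 Abca1 +/- values. Between E14 and ESVJ the log2 difference was -0.05 (95% interval from -0.47 to 0.37, adjusted p = 0.856), and between Cdk4 +/- and Abca1 +/- cells it was -0.53 (from -0.95 to -0.11, adjusted p = 0.0449). The second call was lost without Cdk4 +/- replicate 1 (-0.44, adjusted p = 0.153) or 3 (-0.50, adjusted p = 0.114), and without Abca1 +/- replicate 2 (-0.52, adjusted p = 0.0966) or 3 (-0.40, adjusted p = 0.177). The other Aprt probe sets stayed between 15.3 and 86.0 on all arrays and were not tested.

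Gart gave the largest difference among the tested members. Its probe set gave 2317, 3033 and 2597 in Cdk4 +/- cells and 4078, 4401 and 2891 in E14 cells. It gave 5299, 4320 and 4294 in Abca1 +/- cells and 3826, 4384 and 3617 in ESVJ cells. All 3 Cdk4 +/- values are below every Abca1 +/- and ESVJ value, but the highest, 3033, exceeds the lowest E14 value, 2891. E14 cells overlap ESVJ cells. Between Cdk4 +/- and Abca1 +/- cells the log2 difference was -0.80 (95% interval from -1.14 to -0.46, adjusted p = 0.00102), or 0.574 of the Abca1 +/- level on that scale (from 0.453 to 0.726), and it passed with each array left out in turn. Between E14 and ESVJ cells it was -0.07 (from -0.42 to 0.27, adjusted p = 0.736). The difference between both pairs, tested below as an interaction, did not pass for Gart with all arrays in the fit.

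Adsl fell in the same comparison and did not pass in the other. The Adsl probe set gave 1315, 1670 and 1059 in Cdk4 +/- cells and 1175, 1373 and 1361 in E14 cells. It gave 1972, 2194 and 1586 in Abca1 +/- cells and 1527, 1440 and 1538 in ESVJ cells. The 3 E14 values are all below the 3 ESVJ values by a small step, and the highest Cdk4 +/- value overlaps the lowest Abca1 +/- value. The log2 difference was -0.51 between Cdk4 +/- and Abca1 +/- cells (95% interval from -0.85 to -0.17, adjusted p = 0.0179) and -0.20 between E14 and ESVJ cells (from -0.54 to 0.13, adjusted p = 0.319). The first was lost without Cdk4 +/- replicate 1 (-0.50, adjusted p = 0.0501) or 3 (-0.35, adjusted p = 0.111) and without Abca1 +/- replicate 2 (-0.41, adjusted p = 0.0842).

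Taking each pair on its own, 0 of 3 tested members passed in E14 against ESVJ cells, where 42.6% of all probe sets passed, and 3 of 3 were lower in Cdk4 +/- against Abca1 +/- cells, where 40.5% of all probe sets passed and 21.1% were lower. The difference between both pairs was tested as an interaction. It was -0.73 for Gart (adjusted p = 0.141), -0.47 for Aprt (adjusted p = 0.438) and -0.31 for Adsl (adjusted p = 0.559), and none passed. In that test 0.626% of all probe sets passed. Without E14 replicate 3, which had the lowest Gart signal of its group, Gart passed it at -0.91 (adjusted p = 0.0387). The mean of both line differences, an alternative chosen after seeing the data, was -0.44 for Gart (95% interval from -0.68 to -0.20, adjusted p = 0.00408), -0.36 for Adsl (from -0.59 to -0.12, adjusted p = 0.0137) and -0.29 for Aprt (from -0.59 to 0.01, adjusted p = 0.0909). Gart and Adsl passed there and Aprt did not, where 56.1% of all probe sets passed.

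**Figure D2:**
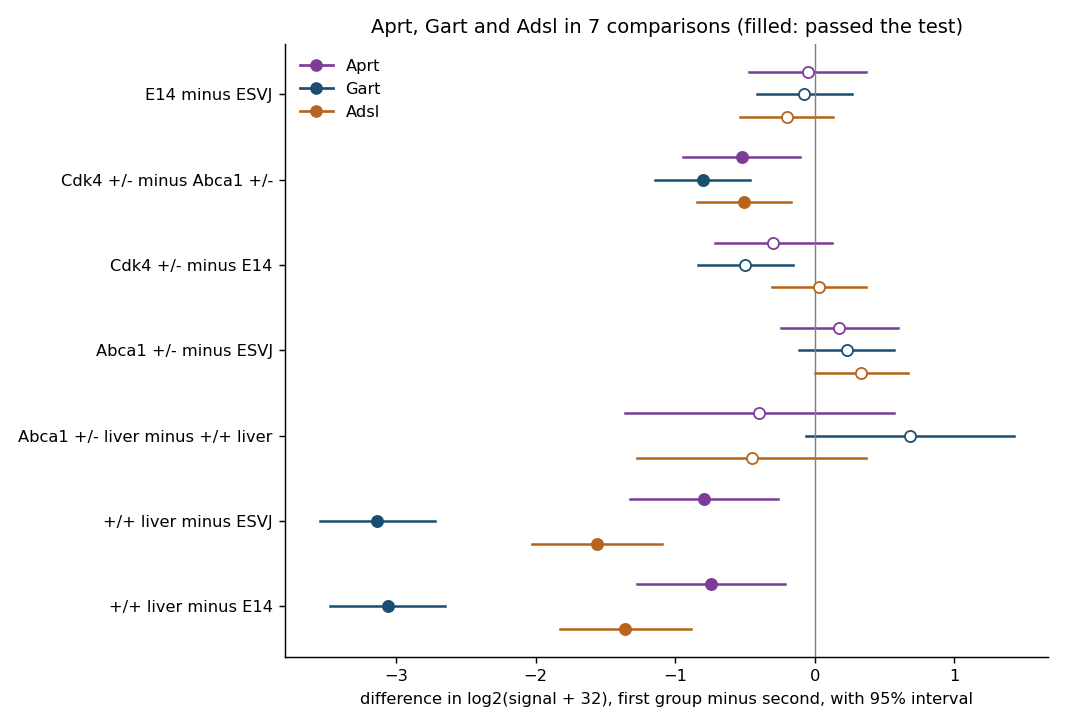
Difference in log2(signal + 32) with its 95% interval for Aprt, Gart and Adsl in 7 comparisons, first-named group minus second. Filled points passed the test: all 3 genes between Cdk4 +/- and Abca1 +/- cells and in both liver comparisons, and none between E14 and ESVJ cells or within a mutant and control pair.

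Within each mutant and control pair no tested member passed. For Cdk4 +/- against E14 cells, both with an Hprt signal near background, Gart was at -0.50 (95% interval from -0.84 to -0.16, adjusted p = 0.0895), Aprt at -0.30 (adjusted p = 0.421) and Adsl at 0.03 (adjusted p = 0.948), and 4.91% of all probe sets passed. Gart passed there without E14 replicate 3 (-0.68, adjusted p = 0.0175). Abca1 +/- against ESVJ cells gave 0.23 for Gart, 0.18 for Aprt and 0.33 for Adsl, each with an adjusted p that rounds to 1, and 0.0272% of all probe sets passed. In Abca1 +/- against +/+ livers, Gart was at 0.68 (adjusted p = 0.305), Aprt at -0.40 (adjusted p = 0.675) and Adsl at -0.45 (adjusted p = 0.554), and 0.0140% of all probe sets passed. The difference of the Abca1 effect between liver and ES cells was 0.45 for Gart, -0.57 for Aprt and -0.79 for Adsl (adjusted p = 0.316, 0.321 and 0.116), in a test that 9.86% of all probe sets passed.

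All 3 tested members were lower in liver than in ES cells, Aprt by its brightest probe set. Gart gave 797 and 598 in Abca1 +/- livers and 430 and 409 in +/+ livers, a fall to 0.114 of the ESVJ level in +/+ livers (log2 difference -3.13, 95% interval from -3.55 to -2.72, adjusted p = 1.43e-10). Adsl gave 258 and 466 in Abca1 +/- livers and 472 and 505 in +/+ livers (-1.56, adjusted p = 6.07e-06, for +/+ livers against ESVJ cells). Every liver value of Gart and Adsl is below every ES value of the same gene. Aprt gave 88.5 and 154 in Abca1 +/- livers and 175.5 and 155.5 in +/+ livers (-0.79, adjusted p = 0.00922). Its dimmer probe sets, not tested, went the other way. They averaged 53.0 and 63.5 in +/+ livers against 32.25 and 35.5 in ESVJ cells, all inside the yeast control range. Against E14 cells, +/+ livers gave -3.06 for Gart, -1.36 for Adsl and -0.74 for Aprt (adjusted p = 1.98e-10, 2.87e-05 and 0.0132). These calls stand against a background of 70.0% of all probe sets passing and 46.2% lower against ESVJ cells, and 73.3% passing and 46.7% lower against E14 cells. The median of all probe sets was itself at -0.42 in both, and at -0.15 under quantile normalization, where the Aprt difference was -0.44 (adjusted p = 0.169) and -0.41 (adjusted p = 0.189) and no longer passed. Without +/+ liver replicate 2 the Aprt calls were lost too (adjusted p = 0.0615 and 0.0777), as was the one against E14 cells without E14 replicate 2 (adjusted p = 0.0607). In whole tissue, fewer cells of a type and less RNA per cell cannot be told apart.

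Of the 61 genes named beside Hprt on 5 lists of purine metabolism, 32 were on the array and 28 were tested in ES cells, Aprt, Gart and Adsl among them. In E14 against ESVJ cells 4 were higher and 9 lower, or 46.4% of the 28 beside 42.6% of all probe sets, with 32.1% lower beside 22.8% of all. In Cdk4 +/- against Abca1 +/- cells 2 were higher and 11 lower, again 46.4%, beside 40.5%, with 39.3% lower beside 21.1% of all. Their median log2 difference was -0.14 in the first comparison and -0.51 in the second, where all probe sets had -0.09 in both. The same 5 purine genes were lower in both comparisons, 17.9% of the 28 beside 13.2% of all probe sets, and 2 were higher in both, 7.14% beside 14.5%. The share of purine genes passing in either direction was thus near that of all probe sets, while the share that was lower was above it in both comparisons. The difference between these shares was not tested.

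Salvage held the 2 largest falls on these lists outside the kinases. Pnp, the purine nucleoside phosphorylase that frees hypoxanthine and guanine for Hprt, gave 2169, 3515 and 2417 in Cdk4 +/- cells and 2945, 2716 and 2539 in E14 cells. It gave 8000, 6882 and 6500 in Abca1 +/- cells and 6308, 8249 and 7699 in ESVJ cells, so the 2 kinds of line do not overlap. The log2 difference was -1.42 in both comparisons (adjusted p = 7.74e-06 and 7.2e-06). The mouse genome has a near-identical neighbour gene, Pnp2, whose RNA this probe set may also read. Slc29a1, an equilibrative nucleoside transporter gene, averaged 1350 ± 347 in Cdk4 +/- cells against 3196 ± 608 in Abca1 +/- cells (-1.24, adjusted p = 0.000353) and 1122 ± 333 in E14 cells against 3315 ± 354 in ESVJ cells (-1.58, adjusted p = 3.89e-05). Its dimmer second probe set did not pass in either. Dck, the deoxycytidine kinase gene, was higher in E14 than in ESVJ cells (0.32, adjusted p = 0.0349), and Slc23a3, a member of the nucleobase transporter family, was lower (-1.02, adjusted p = 0.0157). Both calls were lost in some leave-one-out fits, with adjusted p up to 0.144 for Dck and 0.0896 for Slc23a3, and the second Slc23a3 probe set was at 0.06 (adjusted p = 0.817). Adk, adenosine kinase, did not pass by its brightest probe set (-0.17 and -0.20), while a dimmer one was higher in both comparisons (0.95, adjusted p = 0.00214, and 1.27, adjusted p = 0.00022), so its probe sets disagree. Dguok, the mitochondrial deoxyguanosine kinase, and Slc29a2, a second nucleoside transporter, passed in neither.

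On the route to IMP, the first purine nucleotide made, 5 of 8 measured genes were lower in Cdk4 +/- against Abca1 +/- cells and 2 of 8 in E14 against ESVJ cells, and none was higher in either. That is 62.5% lower beside 21.1% of all probe sets in the first. In the second it is 25.0% beside 22.8%, near the share of all. Of the 5 genes lower in the first, Prps1, Prpsap1 and Prpsap2 belong to the supply of activated ribose phosphate, which salvage also uses. Only Gart and Adsl among them act in the steps after it. Prps1, which makes the activated ribose phosphate that both salvage and synthesis use, was the one gene of this list lower in both. It gave 2933, 2718 and 2856 in Cdk4 +/- cells and 2501, 2401 and 2257 in E14 cells. It gave 4805, 4667 and 4069 in Abca1 +/- cells and 4618, 4194 and 4958 in ESVJ cells, with no overlap (-0.66, adjusted p = 0.000237, and -0.93, adjusted p = 8.96e-06). Ppat, the amidotransferase that commits ribose phosphate to the route, was low on all arrays and lower in E14 than in ESVJ cells, at 55.6 ± 10.4 against 147 ± 23.9 (-1.03, adjusted p = 0.00318). All 3 E14 values lie inside the yeast control range, so the size of this difference depends on the constant added (-1.39 with 1 and -0.66 with 100). In Cdk4 +/- against Abca1 +/- cells it was at -0.56 (adjusted p = 0.0764). Its second probe set gave -0.90 (adjusted p = 0.016) in E14 against ESVJ cells. Prpsap1 and Prpsap2, which encode partner proteins of the Prps enzymes, were lower in Cdk4 +/- than in Abca1 +/- cells (-0.51, adjusted p = 0.013, and -0.69, adjusted p = 0.000954). The Prpsap1 call was lost without Cdk4 +/- replicate 1 (adjusted p = 0.0589).

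Among the purine nucleotide kinases, the adenylate kinases moved in opposite directions. Ak4, a mitochondrial form, gave 480, 572 and 526 in Cdk4 +/- cells and 328, 399 and 351 in E14 cells. It gave 1234, 1202 and 1259 in Abca1 +/- cells and 1560, 1222 and 1385 in ESVJ cells (-1.18, adjusted p = 3.94e-06, and -1.86, adjusted p = 3.92e-08), and its second probe set was lower too (-1.08 and -1.97). Ak1, the cytosolic form, averaged 1010 ± 148 in Cdk4 +/- cells against 526 ± 45.1 in Abca1 +/- cells and 1331 ± 83.7 in E14 cells against 586 ± 117 in ESVJ cells, and was higher in both (0.90, adjusted p = 0.000297, and 1.16, adjusted p = 2.74e-05). Ak3, a mitochondrial GTP-using form, was also higher in both (1.10, adjusted p = 0.00197, and 1.39, adjusted p = 0.000313). Guk1, guanylate kinase, was lower in both (-0.72, adjusted p = 0.00039, and -0.36, adjusted p = 0.0312). The Guk1 call in E14 against ESVJ cells was lost without E14 replicate 1 or 3 or ESVJ replicate 2 or 3, with adjusted p up to 0.114. Of the nucleoside diphosphate kinases, Nme6 was lower (-0.83, adjusted p = 0.000533) and Nme1 higher (0.47, adjusted p = 0.0182) in E14 against ESVJ cells, and Nme2 was lower in Cdk4 +/- against Abca1 +/- cells (-0.35, adjusted p = 0.048). The last 2 calls were lost in some leave-one-out fits, with adjusted p up to 0.0705 for Nme1 and 0.189 for Nme2, and the second Nme1 probe set did not pass (-0.10, adjusted p = 0.726). Among breakdown genes, Itpa, which clears inosine triphosphate, was lower in E14 than in ESVJ cells (-0.54, adjusted p = 0.0202), a call lost without E14 replicate 3 or ESVJ replicate 3 (adjusted p up to 0.105).

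**Figure D3:**
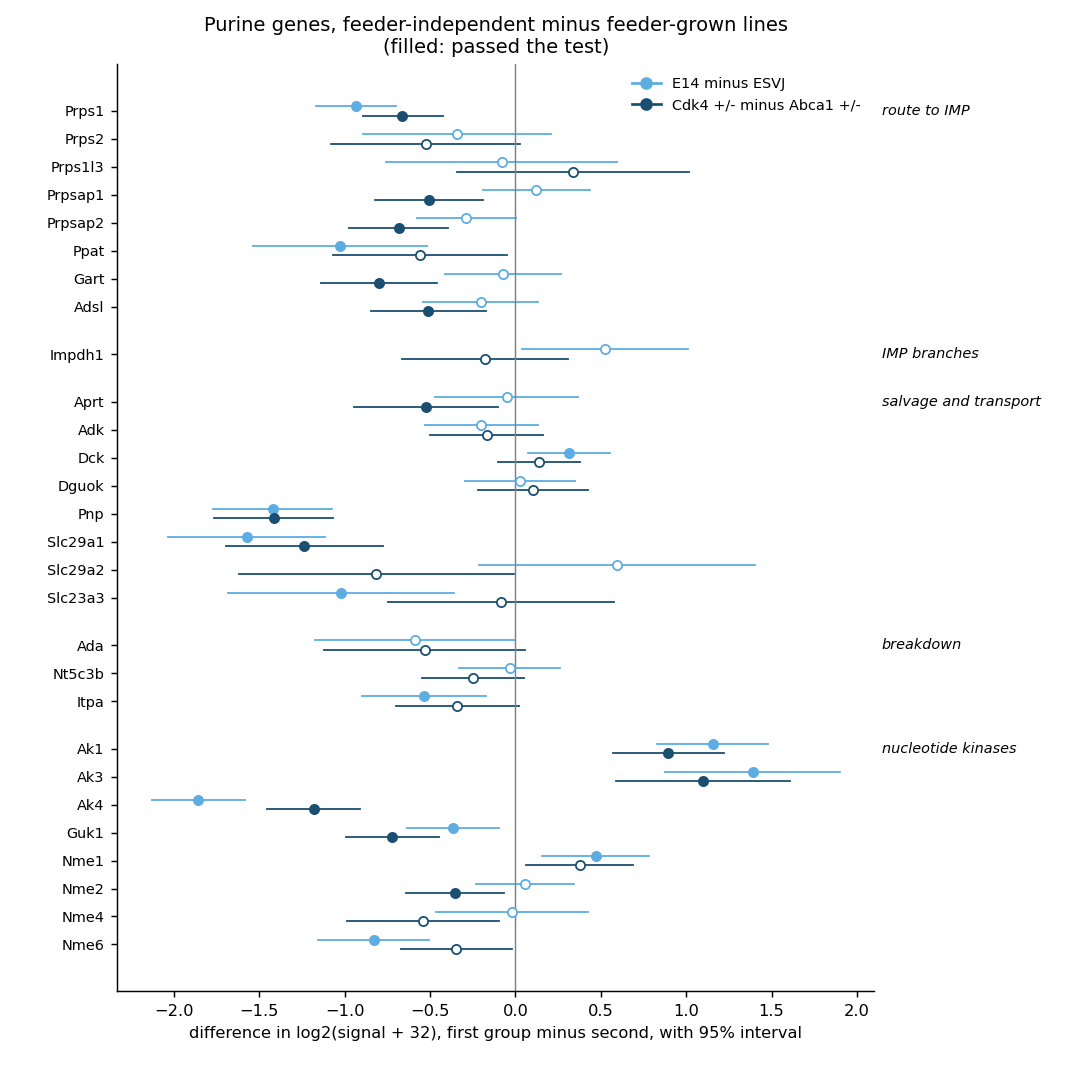
Difference in log2(signal + 32) with its 95% interval for 28 purine genes grouped by role, in E14 minus ESVJ (light) and Cdk4 +/- minus Abca1 +/- (dark). Filled points passed the test: Prps1, Pnp, Slc29a1, Ak4 and Guk1 are left of 0 and filled in both, and Ak1 and Ak3 are right of 0 and filled in both.

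The Cdk4 +/- and E14 lines, both with an Hprt signal near background, differed in 2 of 28 purine genes, or 7.14% beside 4.91% of all probe sets. Impdh1, the relative of Impdh2 that makes the same step toward GMP, gave 254, 434 and 381 in Cdk4 +/- cells and 699, 737 and 591 in E14 cells, without overlap (-0.89, adjusted p = 0.0392). Ak4 was higher in Cdk4 +/- cells (0.51, adjusted p = 0.0363). Leaving out 1 array ended the Impdh1 call in 4 of 6 fits, those without Cdk4 +/- replicate 1 or 3 or E14 replicate 1 or 2 (adjusted p up to 0.173), and the Ak4 call in 6 of 6 (up to 0.136). By limma, 0 of the 28 passed in Abca1 +/- against ESVJ cells and 0 in the interaction of both mutation effects. The unadjusted p was under 0.05 for 0 and 8 of them. Of all 7349 probe sets, 2 and 46 passed, and 241 and 1120 had an unadjusted p under 0.05.

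**Figure D4:**
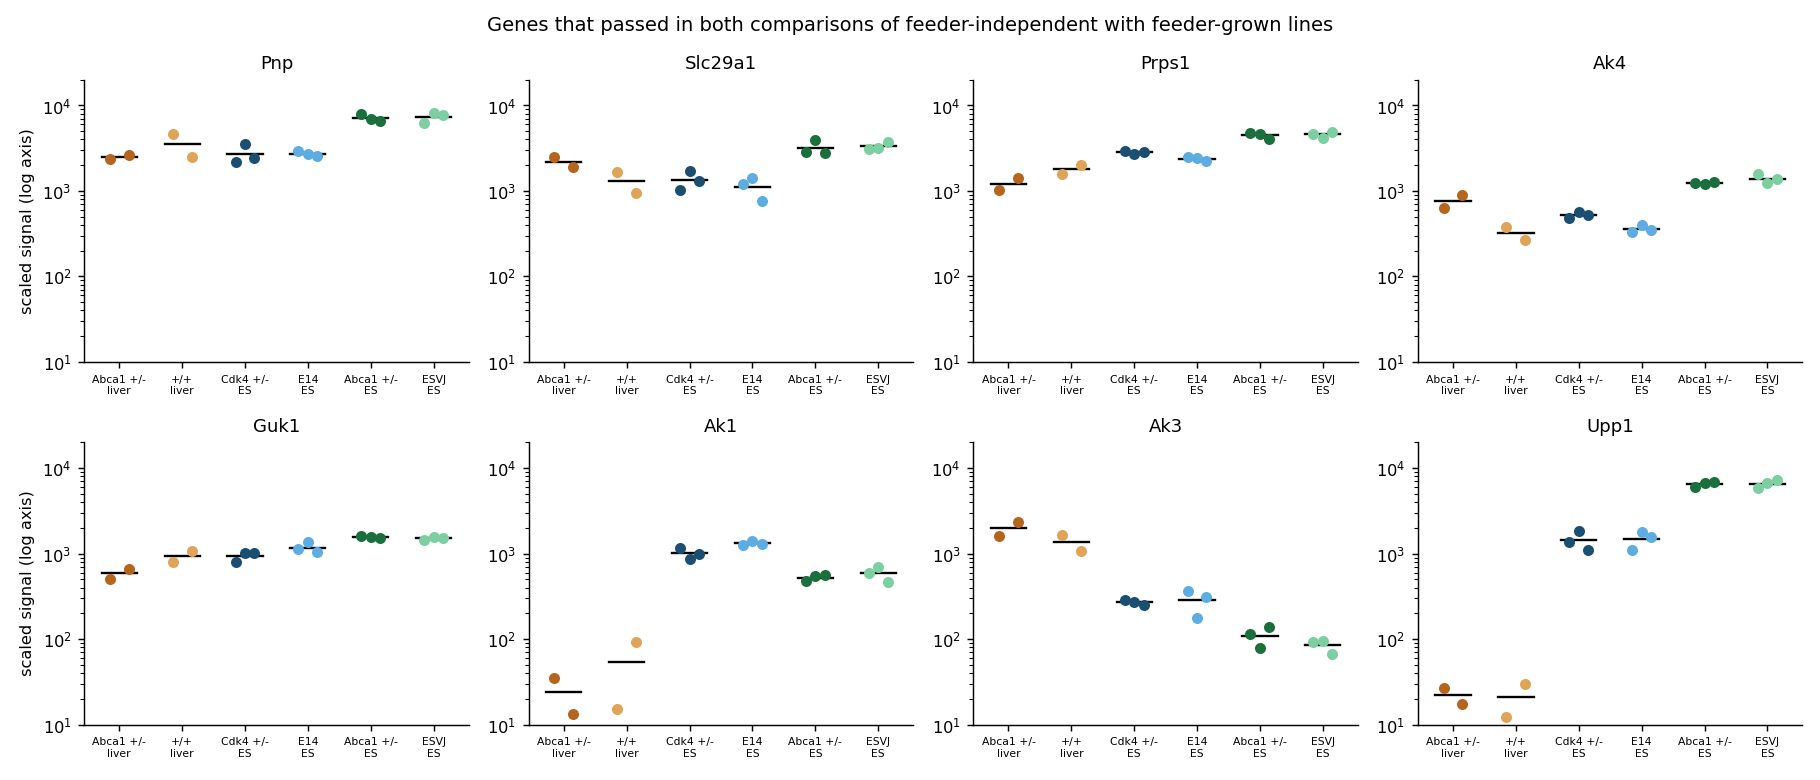
Scaled signal (log axis) on each array of the 7 purine genes that passed in both line comparisons and of the uridine phosphorylase gene Upp1; points are arrays and bars group means. Pnp, Slc29a1, Prps1, Ak4, Guk1 and Upp1 are lower in Cdk4 +/- and E14 cells than in Abca1 +/- and ESVJ cells, and Ak1 and Ak3 are higher.

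Neighbouring nucleotide pathways had shares of passing genes on either side of that of all probe sets. Of 12 tested pyrimidine genes, 1 was higher and 5 lower in Cdk4 +/- against Abca1 +/- cells, so 6 of 12 passed beside 40.5% of all probe sets. In E14 against ESVJ cells 0 were higher and 3 lower, or 25.0% beside 42.6%. Upp1, which splits uridine, had a larger fall than any purine gene but Hprt, at 1446 ± 386 in Cdk4 +/- cells against 6498 ± 468 in Abca1 +/- cells (-2.17, adjusted p = 3.7e-07) and 1484 ± 347 in E14 cells against 6614 ± 703 in ESVJ cells (-2.15, adjusted p = 3.96e-07). Its dimmer probe set was at -0.28 (adjusted p = 0.147) and -0.68 (adjusted p = 0.00188). Tk1, the thymidine salvage kinase of dividing cells, was lower by -0.95 and -0.98 (adjusted p = 4.28e-05 and 3.19e-05). Dhodh, of pyrimidine synthesis, was lower by -0.38 and -0.56 (adjusted p = 0.0402 and 0.00464), and its second probe set passed only in the first (-0.83 and -0.17, adjusted p = 0.000481 and 0.389). Dtymk and Uck2, nucleotide and uridine kinases, were lower and Uck1 higher in Cdk4 +/- against Abca1 +/- cells (-0.76, -0.41 and 0.64, adjusted p = 0.0013, 0.0074 and 0.00371). Uck2 was also lower in Cdk4 +/- than in E14 cells (-0.43, adjusted p = 0.0389), the 1 pyrimidine gene of 12 to pass there, or 8.33% beside 4.91% of all probe sets. The second Dtymk probe set was lower in both comparisons (-0.79 and -0.70, adjusted p = 0.000148 and 0.000438), and the second Uck1 probe set passed in neither.

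Of 9 tested genes of one-carbon metabolism, which feeds carbon into the purine ring, 3 were lower in Cdk4 +/- against Abca1 +/- cells and 1 in E14 against ESVJ cells, and none was higher. That is 33.3% passing beside 40.5% of all probe sets, and 11.1% beside 42.6%. Psph, of serine synthesis, was the one lower in both (-0.68, adjusted p = 0.0207, and -0.64, adjusted p = 0.0278). Shmt1, a serine hydroxymethyltransferase, and Gcsh, of glycine cleavage, were lower in the first (-0.84, adjusted p = 0.00634, and -0.46, adjusted p = 0.0175). Of 3 tested genes of deoxyribonucleotide synthesis and breakdown, Rrm1 was lower in Cdk4 +/- against Abca1 +/- cells (-0.54, adjusted p = 0.0217). Rrm2, and Samhd1, which breaks deoxyribonucleotides down, were lower in E14 against ESVJ cells (-0.31, adjusted p = 0.0342, and -0.41, adjusted p = 0.0435). Of these 3 genes, 33.3% and 66.7% were thus lower, beside 21.1% and 22.8% of all probe sets. The Upp1, Tk1, Dtymk, Uck1 and Shmt1 calls, and Uck2 and Dhodh in 1 line comparison each (-0.41 and -0.56), passed with each array left out in turn. Each other gene of this and the preceding paragraph lost its call with some array left out, with adjusted p up to 0.174.

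In +/+ livers against ESVJ cells, 21 of 30 tested purine genes were lower and 6 higher, or 70.0% lower beside 46.2% of all probe sets, and against E14 cells 16 were lower and 7 higher, 53.3% lower beside 46.7%. All 7 tested genes of the list for the route to IMP were lower in both, and stayed so under quantile normalization. Besides Gart and Adsl these were Prps1 (-1.35), Prps2 (-2.45), Prps1l3 (-2.77), Prpsap1 (-1.03) and Prpsap2 (-1.38) against ESVJ cells, the largest adjusted p being 0.000205. The Prps and Prpsap genes belong to the supply of activated ribose phosphate, which salvage also uses. Only Gart and Adsl act in the steps after it. Prps2 gave 2.43 and 6.79 in +/+ livers, inside the yeast control range, and its value was -5.01 with 1 added and -1.37 with 100. Against E14 cells the values were -2.10 for Prps2, -2.69 for Prps1l3, -1.15 for Prpsap1 and -1.09 for Prpsap2, and Prps2 again moved with the constant (-4.60 and -1.11). Against E14 cells, Prps1 was at -0.42 (adjusted p = 0.0286) and lost its call without +/+ liver replicate 1 (-0.26, adjusted p = 0.259) or E14 replicate 1 or 2 (adjusted p = 0.0755 and 0.0586). Pnp and Slc29a1 were lower in +/+ livers than in ESVJ cells (-1.12 and -1.38, adjusted p = 0.000379 and 0.000247) and did not pass against E14 cells (0.31 and 0.20, adjusted p = 0.249 and 0.522). Without +/+ liver replicate 2 the Pnp difference from ESVJ cells was -0.68. Both comparisons use the same +/+ livers.

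Of 6 tested breakdown genes, 3 were higher and 2 lower in +/+ livers against ESVJ cells, where 23.8% of all probe sets were higher and 46.2% lower, and the counts were the same against E14 cells, where 26.6% were higher and 46.7% lower. Uox, urate oxidase, which ends purine breakdown in the mouse, gave 13970 and 15320 in Abca1 +/- livers and 14610 and 16620 in +/+ livers, and at most 31.1 on any ES array (8.56 for +/+ livers against ESVJ cells, adjusted p = 5.07e-15). Xdh, xanthine dehydrogenase, gave 597 and 723 in Abca1 +/- livers and 263 and 235 in +/+ livers, against a mean of 24.9 in ESVJ cells (2.34, adjusted p = 1.78e-06). Nt5e, the surface nucleotidase that makes adenosine, was higher too (1.97, adjusted p = 9.89e-05), while Ada, adenosine deaminase, and Itpa were lower (-1.87 and -1.31, adjusted p = 0.000684 and 7.03e-05). Without +/+ liver replicate 1 the Ada value was -1.07. The ESVJ values of Uox and Xdh lie inside the yeast control range, and with 1 or 100 added the differences were 10.55 or 7.16 for Uox and 3.45 or 1.49 for Xdh. Adk averaged 13550 in +/+ livers against 2812 ± 476 in ESVJ cells (2.27, adjusted p = 5.91e-09), and Ak3 was higher (3.55, adjusted p = 3.24e-09). Against E14 cells the differences were 8.49 for Uox, 2.73 for Xdh (4.66 with 1 added and 1.66 with 100), 2.50 for Nt5e, -1.28 for Ada, -0.78 for Itpa, 2.47 for Adk and 2.16 for Ak3, the largest adjusted p being 0.011. Ada lost that call without +/+ liver replicate 1 (-0.48), and Ada and Itpa lost it under quantile normalization. Between Abca1 +/- and +/+ livers, 0 of 26 tested purine genes passed by limma and 5 had an unadjusted p under 0.05. Among all 7160 probe sets tested there, 1 passed and 1321 had an unadjusted p under 0.05. The smallest unadjusted p of the purine genes were those of Nme2 (-1.61, adjusted p = 0.121) and Xdh (1.29, adjusted p = 0.121).

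The remaining purine genes that passed between liver and ES cells were mostly lower in liver. Impdh1 (-2.38 against ESVJ and -2.91 against E14 cells), Dck (-2.05 and -2.36), Slc29a2 (-1.15 and -1.75), Ak1 (-3.00 and -4.15), Nme1 (-1.36 and -1.83) and Nme4 (-1.86 and -1.84) were lower in both. Impdh1 and Slc29a2 had both +/+ liver values inside the yeast control range, and with 1 or 100 added Slc29a2 was at -1.71 or -0.70 against ESVJ cells and at -2.61 or -1.06 against E14 cells. Nme2, a nucleoside diphosphate kinase, was higher in both (0.89 and 0.83), calls lost without +/+ liver replicate 2 (0.51 and 0.45) and under quantile normalization. Ak4 (-2.01), Guk1 (-0.69) and Nme6 (-0.49) were lower against ESVJ cells, and Slc23a3 was higher against E14 cells (1.59). The Guk1 call was lost without +/+ liver replicate 1 and under quantile normalization, the Slc29a2 call against ESVJ cells in 4 of 5 leave-one-out fits, and the Nme6 call under most alternatives.

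In the neighbouring lists, 10 of 13 tested pyrimidine genes passed against ESVJ cells, or 76.9% beside 70.0% of all probe sets, and 9 against E14 cells, or 69.2% beside 73.3%. Upp2, a uridine phosphorylase of liver, was higher (6.87 and 7.38) and Upp1 lower (-6.98 and -4.83). Cad (-4.51 and -4.59) and Ctps (-3.03 and -2.91), of pyrimidine synthesis, and the kinases Uck2 (-4.75 and -4.68) and Dtymk (-2.60 and -2.33) were lower in both, as was Dut, which clears dUTP (-1.20 and -1.58), and Cmpk1, a UMP and CMP kinase, was higher (1.44 and 1.14). Umps was lower (-0.57) and Uck1 higher (0.53) against ESVJ cells, and Tk1 was higher against E14 cells (0.66). The calls of Dut and Umps against ESVJ cells, of Uck1 and of Tk1 were lost with some array left out. Of 9 tested one-carbon genes, 6 passed against ESVJ and 5 against E14 cells, or 66.7% beside 70.0% of all probe sets and 55.6% beside 73.3%. Psat1 (-5.44 and -4.98), of serine synthesis, and Mthfd2 (-4.92 and -4.87), a mitochondrial folate enzyme, were lower, and Dld (0.82 and 0.56), Gcsh (0.99 and 1.21) and Shmt1 (0.88 and 1.43) higher, while Psph was lower against ESVJ cells (-1.17). The calls of Gcsh and Shmt1 against ESVJ cells and of Dld against E14 cells were lost with some array left out. All 3 tested genes of deoxyribonucleotide synthesis and breakdown were lower, Rrm1 (-4.96 and -4.87), Rrm2 (-4.23 and -3.92) and Samhd1 (-2.17 and -1.76). Among all probe sets 46.2% were lower against ESVJ cells and 46.7% against E14 cells. The +/+ liver values of Upp1, Cad, Dut, Psat1, Mthfd2, Rrm1 and Samhd1 and the E14 values of Uox, Xdh, Nt5e and Upp2 lie inside the yeast control range, so the size of these differences depends on the constant added.

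**Figure D5:**
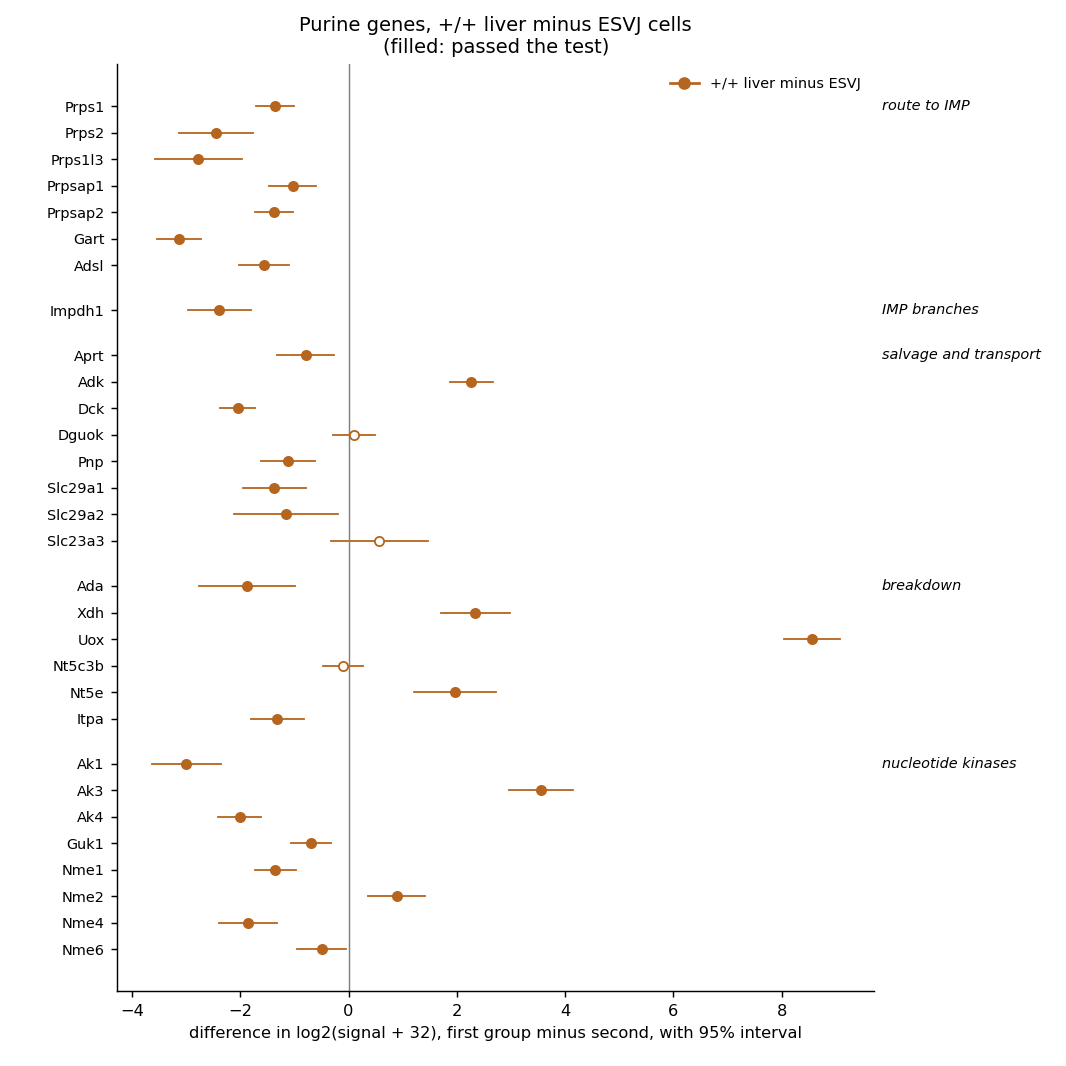
Difference in log2(signal + 32) with its 95% interval for the tested purine genes in +/+ livers minus ESVJ cells, grouped by role; filled points passed the test. All 7 tested genes listed for the route to IMP, Prps genes and their partners among them, lie left of 0, and Uox lies farthest right, at 8.56.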

How the data were processed

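RNA of 16 mouse samples was hybridised to U74Av2 arrays, 1 per sample. Per the labels, the authors processed the arrays with MAS5.0 at default settings. The deposited values are a linear signal intensity per probe set, which the authors had scaled: the 2% trimmed mean was 1501 or 1502 on every array. No detection calls were used here. Signals were rescaled to a trimmed mean of 500, 32 was added and log2 taken. Control probe sets were left out, and probe sets whose mean signal over the fitted arrays reached 100 were tested with limma 3.58.1 in R 4.3.3 (empirical Bayes with an intensity trend, two-sided), with Benjamini-Hochberg adjustment over all probe sets. The 12 ES arrays were fitted together (7349 probe sets), the 4 livers alone (7160), and all 16 arrays for liver against ES cells (7841). In the last fit, livers and ES cells share 1 spread per probe set. Liver arrays of 1 group correlated less closely (r of 0.937 and 0.968) than ES arrays of 1 group (0.970 or more). Groups come from the labels, which give no replicate numbers: replicates are numbered in deposited order and were never paired.

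Members, gene lists and comparisons were chosen with earlier results of these data known. Named are the members, list genes that passed (at most 10 per list and comparison, by smallest p; where none of a list passed, its 2 genes of smallest p were to be named, but mostly only the count is given), the 3 nearest tested neighbours of Hprt on each side and the 5 genes most like it. A gene with several probe sets is read by its brightest. Gene symbols come from the array's annotation and positions from RefSeq (GRCm38.p6). Probe sets marked _f_at, _r_at or _s_at can read related transcripts; among named genes these represent Adk, Dck, Dguok, Nme1, Prps1l3, Slc23a3, Dhodh and Angptl4. The fit was tested on simulated data. The number of arrays limits the precision. Alternatives were pseudocounts of 1 and 100, quantile normalization, the deposited scale, no filter or one of 200, no intensity trend, fits of only the groups compared or of all 16 arrays, averaging a gene's probe sets, and leaving out each array.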

Additional observations from a re-analysis of the deposited data

Results flagged for a closer look

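The Abca1 effect differed between liver and ES cells in 3 of 30 tested purine genes, Ak4, Nme2 and Nt5e, by a limma test of that difference over all 16 arrays. In that test 9.86% of all probe sets passed, so purine genes passed about as often as all probe sets. Uck2 and Samhd1 of the neighbouring lists passed it too. None of the 5 passed in Abca1 +/- against +/+ livers alone (adjusted p from 0.121 to 0.335). Ak4 gave 636 and 896 in Abca1 +/- livers and 378 and 269.5 in +/+ livers, and the difference of effects was 1.33 on the log2 scale (adjusted p = 0.00768). It passed with each array left out. Nme2 gave 4143 and 7726 in Abca1 +/- livers and 13340 and 22570 in +/+ livers (-1.68, adjusted p = 0.00927), and lost its call without +/+ liver replicate 2 (-1.30, adjusted p = 0.0659). Nt5e gave 65.4 and 268 in Abca1 +/- livers and 500.3 and 491 in +/+ livers (-1.73, adjusted p = 0.0423). Its call survived 1 of 10 fits that left out 1 array, and without Abca1 +/- liver replicate 1 the value was -0.92 (adjusted p = 0.204). Uck2 gave 229 and 160 in Abca1 +/- livers and 109 and 81.2 in +/+ livers (0.91, adjusted p = 0.0228), and lost its call without Abca1 +/- liver replicate 1 (0.69, adjusted p = 0.0863) or +/+ liver replicate 2 (0.75, adjusted p = 0.112). Samhd1 gave 292.5 and 104 in Abca1 +/- livers and 70.8 and 27.9 in +/+ livers (1.54, adjusted p = 0.0327). Both +/+ values lie inside the range of the yeast controls. Its call survived 2 of 10 such fits, and without Abca1 +/- liver replicate 1 the value was 0.91 (adjusted p = 0.162). In Nme2, Nt5e, Uck2 and Samhd1 the Abca1 +/- value farther from the +/+ livers is that of replicate 1, the array with the high Gapdh 3'/5' ratio, and the part of RNA quality in these differences was not tested.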

How the results depend on the processing

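The Gart difference between Cdk4 +/- and Abca1 +/- cells passed in the same direction under every alternative run. The counts of all probe sets passing in both line comparisons and in both liver against ES comparisons stayed within 1.5 times of those reported. The split of the line calls turned with all 16 arrays in 1 fit: 50.5% were then higher in E14 against ESVJ cells, where 46.5% were reported, and 52.3% in Cdk4 +/- against Abca1 +/- cells, where 47.9% were. In Cdk4 +/- against Abca1 +/- cells, Aprt (-0.525) missed the threshold with no filter and with all 16 arrays in 1 fit, and Adsl (-0.51) with all 16 arrays. With 1 array left out, Aprt ranged from -0.655 to -0.399 and Adsl from -0.673 to -0.352. Purine genes passing in E14 against ESVJ cells numbered 13 and, with all 16 arrays, 8.

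The comparisons with few calls moved most. Cdk4 +/- against E14 cells had 361 probe sets, against 196 with no filter, 227 with no intensity trend, 174 with only these groups, 35 with all 16 arrays, and 68 to 521 with 1 array left out. Its 2 purine genes became 0 with no filter, no trend or all 16 arrays, 1 with only these groups or with probe sets averaged, and 0 to 3 with 1 array left out. Abca1 +/- against ESVJ cells had 2 probe sets, against 1 with no filter, a filter of 200 or only these groups, 0 with all 16 arrays, and 1 to 2 with 1 array left out. The interaction of both mutation effects had 46 probe sets, against 16 with no filter, 19 with no trend, 1 with all 16 arrays, and 5 to 93 with 1 array left out, with 0 to 1 purine genes; the 1 was Gart, without E14 replicate 3. Abca1 +/- against +/+ livers had 1 probe set, against 0 under quantile normalization or no trend, 3 with no filter and 1970 with all 16 arrays, where 9 purine genes passed, Gart among them (adjusted p = 0.0279). With 1 liver left out it had 9 to 1653 probe sets and 0 to 6 purine genes, the most without Abca1 +/- liver replicate 2, where the lone array is assumed to vary like the others. The liver and ES interaction had 773 probe sets and 3 purine genes, against 188 and 1 with only these groups, and 196 to 2234 and 1 to 9 with 1 array left out, again the most without Abca1 +/- liver replicate 2. Nme2 in +/+ livers against E14 cells reversed to -0.154 (adjusted p = 0.42) under quantile normalization, which moved the median of all probe sets from -0.42 to -0.15 and the share of higher calls in +/+ livers against ESVJ cells from 34.0% to 44.6%. The causes were not tested. No paired analysis was possible because the labels give no replicate numbers that groups share.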
